A study of Mus musculus with 8 samples.

Results

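The genes examined here encode 9 proteins that cut, trim, modify or regulate peptide precursors in the secretory pathway: *Pcsk1*, *Pcsk2*, *Furin*, *Pcsk1n*, *Scg5*, *Cpe*, *Pam*, *Qpct* and *Ctsl*. They were chosen by function, but with earlier results of these data known, as were the related lists used below. Shares set beside those of all genes are therefore descriptions. Probes of the 9 genes were found by matching the RefSeq accession of each probe to a current gene symbol. This gave 12 of the 39429 probes and 9 of the 19751 named genes on the array. *Cpe* was read by 3 probes, *Pcsk2* by 2, and each of the other 7 genes by 1.

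A peptide hormone is made as a large inactive precursor, which is cut after pairs of basic residues by proprotein convertases while it moves through the Golgi and into secretory granules. A carboxypeptidase then removes the basic residues left at the cut end, and some peptides are further amidated at the C-terminus or cyclised at the N-terminus. In corticotrophs of the anterior pituitary the convertase encoded by *Pcsk1* releases ACTH from pro-opiomelanocortin, whereas the convertase encoded by *Pcsk2*, abundant in melanotrophs, cuts ACTH further into smaller melanocortins.

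RNA was hybridised to 8 single-colour arrays, 4 of control AtT20 cells and 4 of AtT20 cells exposed to HX630. AtT20 is a murine pituitary corticotroph tumor line, so every sample came from this line, and HX630 is a synthetic agonist of all retinoid X receptors. HX630 was given at 10 μM for 48 hr in medium with charcoal-stripped serum, and the control cells were kept in the same medium without it. HX630 was stocked in DMSO, and the labels do not say whether the control cells received DMSO, nor whether the 4 arrays of a group came from separate cultures, so that p-values measure only the spread between these samples, which may be technical. The control arrays lay on 1 slide and the HX630 arrays on the other, each scanned separately, and slide and treatment cannot be told apart for any value given here.

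Each value is the log2 signal of a probe minus the 75th percentile of its array, so that 0 is the 75th percentile and 1 unit is a 2-fold difference. Probes bind with different strength, so levels were compared between arrays and not between genes. The 75th percentile was 1335 to 1863 intensity units in the control arrays and 1803 to 1899 in the HX630 arrays, 69.7 to 73.5% of probes were well above background, and no spot was saturated (0 spots). Arrays correlated at 0.994 to 0.998 within a group and 0.978 to 0.984 between groups, over probes, which are not independent replicates. A gene was called changed at an adjusted p below 0.01 (limma, Benjamini-Hochberg over 28553 tested probes) with a fold change above 1.5. By this rule 2994 of 15320 genes, or 19.5%, were called, 8.38% up and 11.2% down. The share of called genes that were higher was 42.9%, and it was 54.7% with the array median and 70.8% with spike-in probes as the scale.

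Of 6 corticotroph markers, 5 were measurable, and their summed linear signal was 233 to 305 times the 75th percentile in the control arrays and 201 to 212 times in the HX630 arrays. The sum is carried by *Pomc*. Of the other 4, the CRH receptor gene *Crhr1* (log2 fold change 1.11) and *Neurod1* (0.72) were called up, and *Tbx19* (-0.37) and *Pitx1* (-0.32) were not called. The vasopressin receptor gene *Avpr1b* was below the detection filter. Of 19 markers of other pituitary cells, fibroblasts, leukocytes and endothelium, 13 were tested, and their summed signal was 1.39 to 1.70 times the 75th percentile in control arrays and 1.08 to 1.24 times in HX630 arrays. In that list *Dcn* was called up, and *Gh*, *Csf1r* and *Pecam1* were called down, while the pituitary hormone genes *Prl*, *Tshb*, *Fshb* and *Cga* were not above the filter. Leukocyte markers gave the largest part of this sum, at 0.73 to 0.85 in control arrays and 0.45 to 0.55 in HX630 arrays. The fibroblast markers summed to 0.08 to 0.10 and 0.10 to 0.14. The part of these shifts in the results was not tested.

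All 9 processing genes were well above background on all 8 arrays. Of these, 2 were called up (*Pcsk2* and *Qpct*), 5 were called down (*Pcsk1*, *Scg5*, *Cpe*, *Pam* and *Ctsl*), and *Furin* and *Pcsk1n* were not called. So 5 of 9 were down against 11.2% of all genes tested, and 2 of 9 were up against 8.38%. Counted by probe, 3 of 12 were called up against 7.46% of all probes tested, and 7 of 12 down against 11.2%. By the adjusted p alone, the same 7 of 9 genes passed, against 51.2% of all genes (24% up and 27.2% down). Their median log2 fold change was -0.96, and that of all 15320 genes was -0.03. In 2 of the 9 all HX630 arrays lay above all control arrays and in 6 all lay below, whereas this held for 28.6% and 32.8% of all genes. At 4 arrays against 4 the smallest exact two-sided permutation p is 0.0286, and each of these 8 genes had that value.

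**Figure D1:**
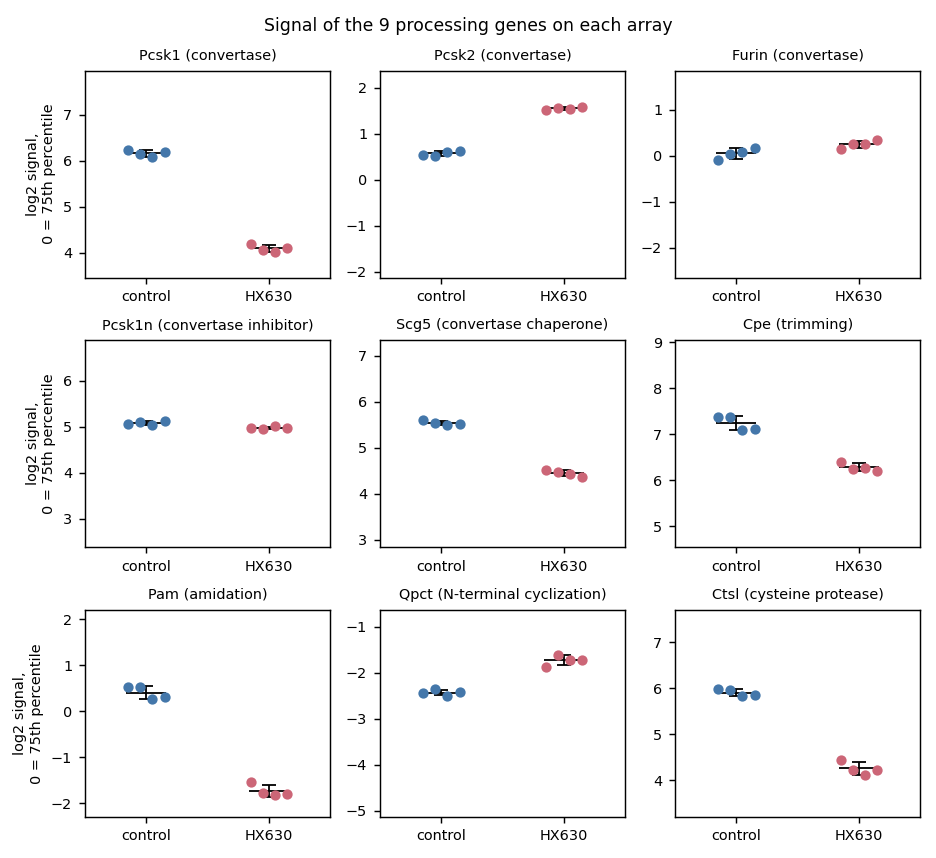
Log2 signal of the representative probe of each processing gene on each array, with 0 at the 75th percentile of the array and the same span of the axis in every panel; points are arrays, and bars are the mean and SD of 4 arrays. *Pcsk1*, *Pam* and *Ctsl* drop by more than 1.5 units, *Pcsk2* rises by about 1, and only in *Furin* do the groups overlap.

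The main convertase of the corticotroph granule and its relative moved in opposite directions. The *Pcsk1* probe stood at 6.23, 6.14, 6.07 and 6.18 in the control arrays and at 4.19, 4.07, 4.01 and 4.11 in the HX630 arrays. The groups were separated by 1.88 units, many times the spread within either. *Pcsk1* signal fell from 6.16 ± 0.07 to 4.10 ± 0.08 (SD, n = 4), or to 24.0% of control, with a log2 fold change of -2.06 (SE 0.05, 95% interval -2.18 to -1.94, limma adjusted p = 1.26e-07).

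*Pcsk2* was measured by a brighter and a dimmer probe. The brighter probe read 0.54, 0.51, 0.60 and 0.63 in control arrays and 1.52, 1.57, 1.54 and 1.58 in HX630 arrays, so that every treated array was above every control array. *Pcsk2* rose 1.97-fold, with a log2 fold change of 0.98 (SE 0.04, 95% interval 0.89 to 1.07, limma adjusted p = 5.97e-07). The dimmer probe read -5.63, -4.16, -5.91 and -6.11 in control arrays and -3.74, -3.48, -3.66 and -3.59 in HX630 arrays. Control replicate 2 lay well above the other 3 on this probe, though still below every HX630 array. Its log2 fold change was 1.83 (SE 0.39, limma adjusted p = 0.00475), and the estimate ran from 1.61 to 2.26 when single arrays were left out. Under normexp it was 0.74 (limma adjusted p = 0.0262) and was not called. Both probes were called up, but the dimmer one was called in only 15 of 25 alternative settings.

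*Furin* encodes the convertase of the Golgi that nearly all cells make. Its signal was -0.10, 0.03, 0.08 and 0.17 in control arrays and 0.14, 0.24, 0.25 and 0.33 in HX630 arrays, and the highest control array exceeded the lowest treated array. The log2 fold change was 0.20 (SE 0.07, 95% interval 0.04 to 0.35, limma adjusted p = 0.0364, exact permutation p = 0.0571), which did not pass the threshold. Of the other convertase genes, 5 of 6 were tested (*Pcsk5* was below the filter), and their median log2 fold change was -0.03. None was called (0 up, 0 down), against 8.38% up and 11.2% down of all genes.

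The sequences upstream of the convertases with opposite changes, and of *Pam*, which fell about as much as *Pcsk1*, are shown because they can be set beside those changes. They are the 250 bases before the annotated start (RefSeq, mouse build GRCm38.p6), for *Pcsk1* at chr13:75089607-75089856 on the plus strand, for *Pcsk2* at chr2:143545883-143546132 on the plus strand and for *Pam* at chr1:98095647-98095896 on the minus strand. Capitals mark matches to the cAMP response element TGACGTCA and to the hypoxia response core ACGTG.
Pcsk1: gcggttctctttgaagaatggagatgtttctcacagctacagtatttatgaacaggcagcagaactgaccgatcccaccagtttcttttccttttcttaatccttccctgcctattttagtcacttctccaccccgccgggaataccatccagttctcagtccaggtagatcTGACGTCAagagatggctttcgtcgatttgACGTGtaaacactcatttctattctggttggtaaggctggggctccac
Pcsk2: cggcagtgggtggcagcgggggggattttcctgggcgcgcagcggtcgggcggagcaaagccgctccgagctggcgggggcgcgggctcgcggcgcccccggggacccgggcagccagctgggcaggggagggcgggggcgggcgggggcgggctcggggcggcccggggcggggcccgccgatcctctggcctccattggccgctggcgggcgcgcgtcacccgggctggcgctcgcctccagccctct
Pam: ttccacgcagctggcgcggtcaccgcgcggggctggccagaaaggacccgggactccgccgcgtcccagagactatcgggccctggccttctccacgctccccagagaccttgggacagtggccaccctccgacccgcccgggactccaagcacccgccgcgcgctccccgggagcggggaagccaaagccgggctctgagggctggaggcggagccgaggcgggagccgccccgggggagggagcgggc

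Both strands were searched for those letters, for the nuclear receptor core AGGTCA and for the Nr4a monomer site AAAGGTCA, which contains AGGTCA. The *Pcsk1* window held 1 TGACGTCA at 78 to 71 bases before the start and 1 ACGTG at 48 to 44 bases, which do not overlap each other. These letters are found in 1.55% and 16.6% of the 32851 RefSeq windows of this length. The *Pcsk2* and *Pam* windows held none of the 4 motifs, and they were rich in G and C, at 82.4% and 75.6% against a median of 52.4% over all windows and 46.8% for *Pcsk1*. In all, 7 processing genes had 9 windows, and none held AGGTCA (0 windows), which 14.0% of all windows hold. *Ctsl* had the only other match, ACGTG read on both strands as overlapping letters at 236 to 231 bases. *Cpe* and *Qpct* are named only.

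**Figure D2:**
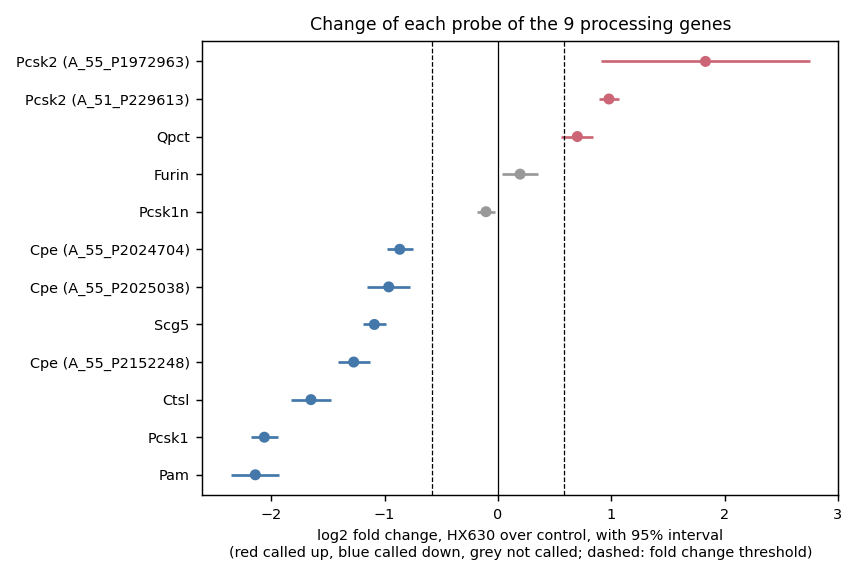
Log2 fold change of HX630 over control with its 95% interval for every probe of the 9 processing genes; red probes were called up, blue probes down and grey probes not called, and dashed lines mark the fold change threshold of 1.5. The 3 *Cpe* probes lie between -1.27 and -0.87, and the wide interval is that of the dimmer *Pcsk2* probe.

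The partner proteins of these convertases differed as well. *Scg5* encodes 7B2, a chaperone that proPC2 (the product of *Pcsk2*) needs to become active. *Scg5* signal was 5.59, 5.54, 5.49 and 5.52 in control arrays and 4.52, 4.48, 4.42 and 4.37 in HX630 arrays, with no overlap. It fell to 46.9% of control, a log2 fold change of -1.09 (SE 0.04, 95% interval -1.19 to -0.99, limma adjusted p = 6.63e-07). The chaperone gene therefore fell on the same arrays on which *Pcsk2* rose.

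*Pcsk1n* encodes proSAAS, a granin-like precursor that can inhibit the *Pcsk1* product. Its values were 5.07, 5.10, 5.03 and 5.14 in control arrays and 4.97, 4.95, 5.01 and 4.98 in HX630 arrays. The groups did not overlap, but the gap was only 0.02 units. The log2 fold change was -0.11 (SE 0.04, 95% interval -0.19 to -0.02, limma adjusted p = 0.0327) and was not called. Its sign depended on the scale, being 0.06 after quantile normalization and 0.12 with spike-in probes, where the median of all genes was 0.03 and 0.19.

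Ratios between genes within an array do not depend on any single number by which that array is scaled, and their changes are given as descriptions with no test. The ratio of *Pcsk2* to *Pcsk1* signal shifted by 3.04 log2 units (SE 0.07), or 8.23-fold, and the 4 HX630 arrays lay apart from the 4 control arrays. That of *Pcsk2* to its chaperone gene *Scg5* shifted 4.20-fold, by 2.07 (SE 0.06). The ratio of the inhibitor gene *Pcsk1n* to *Pcsk1* shifted 3.88-fold, by 1.96 (SE 0.05). *Pomc*, the substrate gene, gained 3.05-fold relative to *Pcsk1*, by 1.61 (SE 0.09). Relative to *Pcsk1*, the *Pam* signal moved by -0.08 (SE 0.07), and the arrays of both groups overlapped.

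**Figure D3:**
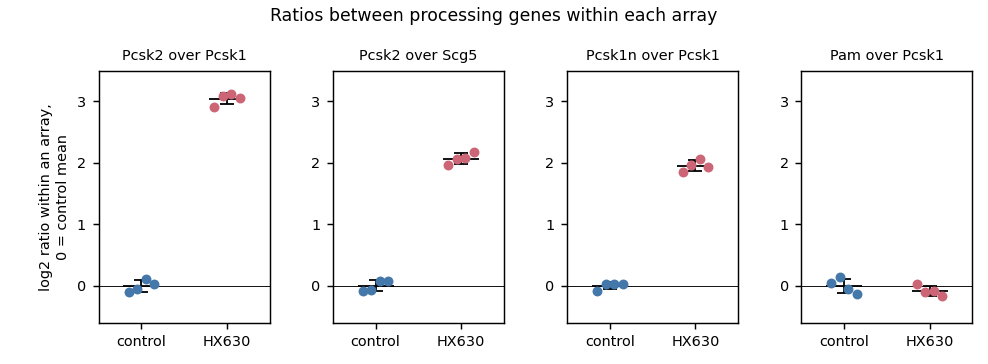
Log2 ratio of the signals of pairs of processing genes on each array, with the control mean of each ratio set to 0; points are arrays, with the mean and SD of 4 arrays. The ratio of *Pcsk2* to *Pcsk1* is 3.04 higher in HX630 arrays, and the ratio of *Pam* to *Pcsk1* overlaps between groups.

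Of the 3 processing genes that act after the convertases, *Cpe* and *Pam* were called down and *Qpct* up. *Cpe* encodes carboxypeptidase E, which trims the basic residues exposed by the convertases. Its representative probe was 7.38, 7.37, 7.10 and 7.12 in control arrays and 6.40, 6.24, 6.27 and 6.20 in HX630 arrays. Control replicates 1 and 2 were higher than 3 and 4, and all lay above the treated arrays. The signal fell to 51.3% of control, a log2 fold change of -0.96 (SE 0.08, 95% interval -1.16 to -0.77, limma adjusted p = 3.18e-05). The other 2 probes were called down as well, at -0.87 (limma adjusted p = 3.31e-06) and -1.27 (limma adjusted p = 1.47e-06). *Cpe* was thus lower on all 3 probes, by amounts that differed between them.

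*Pam* encodes the monooxygenase that amidates peptide C-termini, and its fall was of about the size of that of *Pcsk1*. Control arrays read 0.53, 0.53, 0.27 and 0.30 and HX630 arrays -1.53, -1.78, -1.82 and -1.80. HX630 replicate 1 was the least reduced, but far below every control array. *Pam* signal fell from 0.41 ± 0.14 to -1.73 ± 0.14 (SD, n = 4), or to 22.7% of control, with a log2 fold change of -2.14 (SE 0.09, 95% interval -2.35 to -1.93, limma adjusted p = 8.43e-07). Amidation also needs copper and ascorbate. Of the 8 genes listed for their supply, a list that also holds *Kalrn* and *Rassf9*, 7 were tested. None was called (0 up, 0 down), against 8.38% up and 11.2% down of all genes, and the median log2 fold change was -0.004. Below the fold threshold, *Slc23a2* (-0.56), *Cyb561* (-0.38) and *Ccs* (-0.14) were lower and *Kalrn* (0.39) was higher, each at a limma adjusted p below 0.01.

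*Qpct* encodes glutaminyl cyclase, which converts N-terminal glutamine to pyroglutamate in secreted peptides. It was -2.43, -2.36, -2.50 and -2.41 in control arrays and -1.87, -1.60, -1.72 and -1.71 in HX630 arrays, without overlap. *Qpct* rose 1.63-fold, a log2 fold change of 0.70 (SE 0.06, 95% interval 0.56 to 0.84, limma adjusted p = 3.38e-05). With normexp background correction the value was 0.55, below the fold threshold. The ratio of *Qpct* to *Pam*, both enzymes that modify peptide ends, shifted by 2.84 log2 units (SE 0.13), or 7.17-fold.

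Of 13 other peptide-trimming and modifying genes, 12 were tested, with a median of -0.15. Of these, 3 (25%) were called down and 0 up, against 11.2% and 8.38% of all genes. *Qpctl*, the Golgi relative of *Qpct*, fell with a log2 fold change of -0.91 (limma adjusted p = 6.51e-06), opposite in sign to *Qpct*. *Prcp*, a lysosomal prolylcarboxypeptidase, fell by 0.64 on its representative probe (limma adjusted p = 1.22e-05). *Cpz*, a carboxypeptidase of the extracellular matrix, was at -0.65 (limma adjusted p = 0.00975), a dim probe that was called in only 7 of 26 alternative settings.

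*Ctsl* encodes cathepsin L, a cysteine protease of lysosomes that has also been placed in secretory granules as a prohormone-cutting enzyme. The signal was 5.98, 5.97, 5.83 and 5.86 in control arrays and 4.45, 4.23, 4.12 and 4.24 in HX630 arrays. No array of one group came near the other group. *Ctsl* fell to 31.9% of control, a log2 fold change of -1.65 (SE 0.08, 95% interval -1.82 to -1.48, limma adjusted p = 1.12e-06).

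Other cathepsin genes were also lower. Of 11 listed, 8 were tested, with a median log2 fold change of -0.82 against -0.03 for all genes. Of these, 5 (62.5%) were called down and 0 up, against 11.2% and 8.38% of all genes. *Ctsk*, an enzyme known from bone resorption, was at -1.43 (limma adjusted p = 3.68e-05), the aspartic protease gene *Ctsd* at -1.26 (limma adjusted p = 2.89e-07) and *Ctsb* at -1.14 (limma adjusted p = 1.12e-06). The other called genes, *Ctsa* at -0.87 and *Ctsf* at -0.78, fall outside the naming rule and are given because the count was small. Cystatins inhibit cysteine cathepsins, and 3 of 4 cystatin genes were tested, of which 2 were called down, against 11.2% of all genes. The mean log2 signal of *Cst3* went from 5.49 to 4.49 (limma adjusted p = 3.44e-07) and that of *Cst6* from 1.11 to 0.11 (limma adjusted p = 5.77e-07).

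Most of the measurable precursor genes were lower. Of 20 prohormone and granin genes, 15 were tested, and their median was -0.68. Of these, 9 (60%) were called down and 1 (6.67%) up, against 11.2% and 8.38% of all genes. *Pomc* was 8.13, 8.19, 7.78 and 8.01 in control arrays and 7.55, 7.55, 7.63 and 7.56 in HX630 arrays. All treated arrays were below all control arrays, but the log2 fold change of -0.45 (SE 0.09, limma adjusted p = 0.00241) did not reach the fold threshold. It was -0.19 after quantile normalization, -0.23 with spike-in probes and -0.29 under normexp. Changes were much larger in *Uts2*, the urotensin 2 precursor (-5.73, SE 0.26, limma adjusted p = 1.09e-06), and in *Vgf*, a neuroendocrine granule precursor (-3.03, SE 0.12, limma adjusted p = 6.27e-07). The cholecystokinin gene *Cck* fell by 1.63 on the log2 scale (limma adjusted p = 9.64e-07). The gene called up was the enkephalin precursor *Penk*, at 0.69 (SE 0.15, limma adjusted p = 0.00509), named after its value was seen. Its probe was dim, at -6.58 in control and -5.89 in HX630 arrays, and above background on 5 of 8 arrays. It may thus have passed the filter mainly through the HX630 arrays, where it was higher. The call was absent under normexp, with probes above background on all 8 arrays and by the methods' t-test with adjustment.

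Processing enzymes need an acid granule lumen, which the vacuolar proton pump provides. All 16 pump genes were tested, with a median of -0.21. Of these, 3 (18.75%) were called down and 0 up, against 11.2% and 8.38% of all genes. *Atp6ap2* fell by 1.11 (limma adjusted p = 1.39e-06) and *Atp6ap1* by 0.92 (limma adjusted p = 3.12e-06) on the log2 scale, both accessory subunits. *Atp6v0a2*, a membrane subunit, was at -0.60 (limma adjusted p = 1.20e-04) and was called in 17 of 26 alternative settings. Among 14 genes of enzyme trafficking, all tested, 1 (7.14%) was called down, the sorting receptor gene *Sorl1*, against 11.2% of all genes. None was called up, and the median of the list was -0.03. *Sorl1* was well above background in all 4 control arrays and not well above background in the HX630 arrays, so that it passed the filter only through the control arrays, where it was higher. With the processed signal the bound on its fall was 5.08-fold. No p is given for it, because it was tested only through the group where it was higher. This bound sets the control mean against the lowest signal among probes well above background on each HX630 array, and it depends on the background correction, since the fitted log2 fold change was -2.73 with the processed signal and -1.56 under normexp. In these samples of whole cells, fewer cells with a transcript and less of it per cell cannot be told apart.

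**Figure D4:**
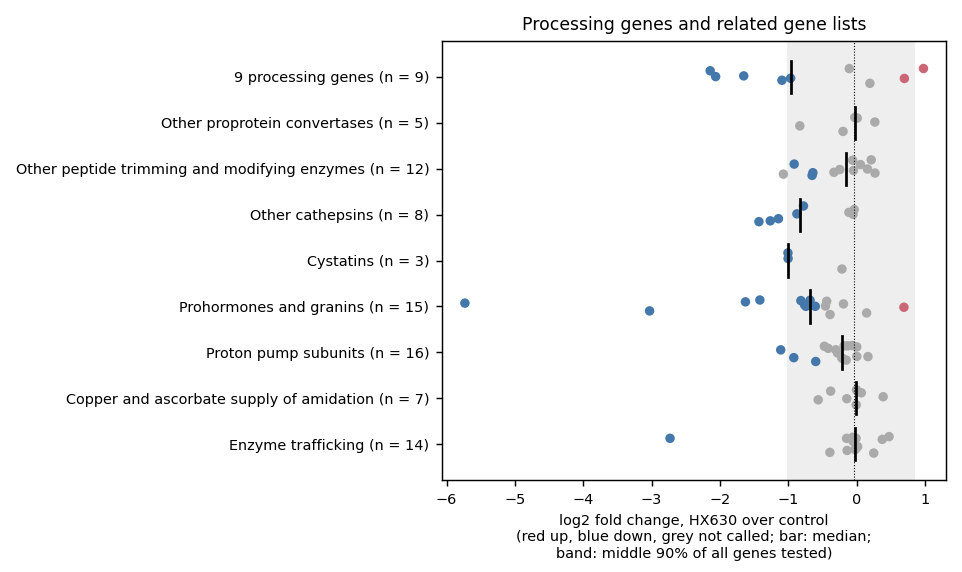
Log2 fold change of HX630 over control for the 9 processing genes and for the tested genes of 8 related lists, with black bars at the medians, red for genes called up, blue for called down and grey for not called. The dotted line is the median of all genes, -0.03; the medians of the processing genes, other cathepsins, cystatins and prohormones lie at -0.68 or below, and those of the other lists between -0.21 and 0.

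Over all 8 lists, 80 of 92 genes were tested, and 23, *Sorl1* among them, were called down, or 28.8%, against 11.2% of all genes. Only 1 was called up, or 1.25%, against 8.38% of all genes. With spike-in probes as the scale 15 were called down and 4 up, where 1031 of all 15320 genes were called down and 2501 up.

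After subtraction of the group means, Pearson's r of the 36 pairs over the 8 arrays, which share their scaling, had a median of 0.01 and ran from -0.93 for *Pcsk2* and *Cpe* to 0.94 for *Cpe* and *Pam*. The 5 genes called down varied together within groups, with r of 0.55 to 0.94 in all 10 pairs among them. *Pcsk2* and *Furin*, of which *Furin* was not called, ran against them, with r of -0.93 to -0.24 in 10 pairs. *Qpct*, the other gene called up, had r of only -0.40 to -0.11 with these 5 genes and of 0.08 with *Pcsk2*. How common such r are among other gene pairs was not tested. Over all arrays the genes with the pattern most like *Pcsk2* were AW554918, *Tmem44* and *Sox11* (r = 0.9999, 0.9997 and 0.9994 over 8 arrays). Those most like *Pam* were *Pdia6*, *Wnt10a* and *Ctsb* (r = 0.9996, 0.9994 and 0.9994). Such values were common among the 14304 genes compared, of which 495 exceeded 0.99 with *Pcsk2* and 913 with *Pam*, since the arrays form 2 groups.

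The calls of *Pcsk1*, *Scg5*, *Cpe*, *Pam*, *Ctsl* and *Pcsk2* held under each scaling and background correction tried, and that of *Qpct* under all but normexp. Under 5 other scalings or corrections *Pcsk1* ranged from -2.13 to -1.84, *Pam* from -2.12 to -1.92 and *Pcsk2* from 0.82 to 1.20. Of the 9 genes, only *Pcsk1n* changed sign. The spike-in scale moved the median of all genes by 0.22, from -0.03 to 0.19, and all 9 genes upward with it.

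**Figure D5:**
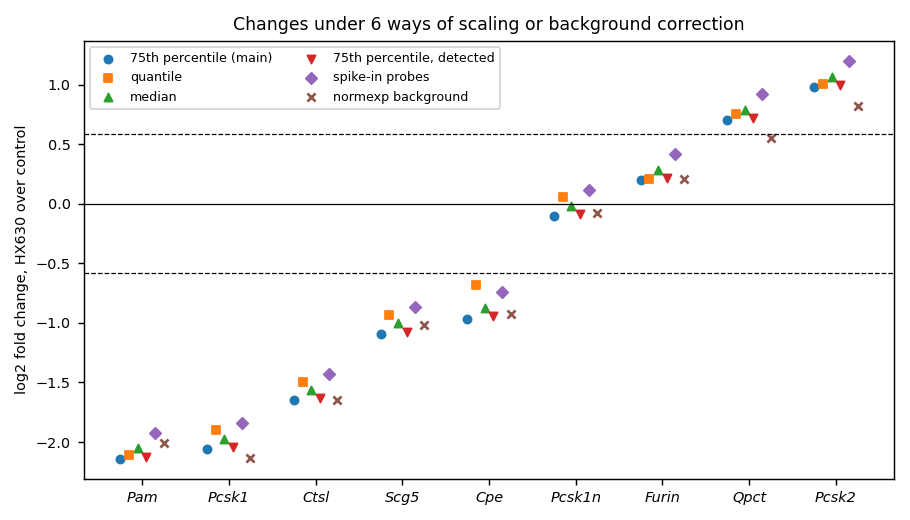
Log2 fold change of each processing gene under 6 ways of scaling the arrays or correcting the background, 1 symbol for each, with dashed lines at the fold change threshold. *Pcsk1*, *Scg5*, *Cpe*, *Pam* and *Ctsl* lie below 0 and *Pcsk2* and *Qpct* above 0 under each, and *Pcsk1n* lies on either side of 0.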

How the data were processed

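Arrays were scanned and extracted by the authors with Agilent Feature Extraction (10.7.3.1, per the submitters' processing notes), which subtracts background and flags outlier spots. The deposited spot values are processed intensity values on a linear scale, and the deposited series table holds log2 values that differ little from log2 intensity minus the array's 75th percentile (median absolute difference 2.26e-07). The same scale was recomputed from the spots, without control spots and outlier flags, averaging spots of a probe. Probes well above background on at least 4 of 8 arrays were tested with limma 3.58.1 in R 4.3.3 (28553 probes, 20041 with a symbol) on all 8 arrays, with Benjamini-Hochberg adjustment over all of them. The brightest tested probe stood for a gene. Single values were also compared by an exact two-sided permutation test over the 70 regroupings of the arrays. The fit was tested on simulated data, in which 74.5% of 200 probes changed by 1 log2 unit were recovered. The number of arrays limits the precision. The members and lists were chosen with earlier results of these data known. Named were all 9 genes, up to 3 called genes of each list with the largest change, *Pomc*, and the 3 genes most like the genes that rose and fell most. Alternatives covered scaling, background correction, filters, thresholds, tests, probe summary, pairing and leaving out arrays. Replicate numbers are positions on a slide, and samples of the same number did not all deviate together, so no block was used. Promoter windows came from RefSeq (GRCm38.p6).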

Additional observations from a re-analysis of the deposited data

Results flagged for a closer look

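In 58 groups of 4 arrays, covering the probes of the processing genes, the other named genes and array quality, 3 held an array set apart from the other 3, and chance gives about 2.9 (1 in 20). HX630 replicate 1 was the highest treated array on the *Pam* probe, with a gap of 0.854 of the group's range. It was apart in the same way on the *Cpe* probe A_55_P2152248, with a gap of 0.869 of the range. Control replicate 1 had the lowest mean correlation with its own group, with a gap of 0.946 of the range. Without HX630 replicate 1 the log2 fold changes were -2.21 for *Pam* and -1.32 for that *Cpe* probe, and both calls held. Without both of these arrays, a choice made after the values were seen, 2 processing genes were still called up and 5 down.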

How the results depend on the processing

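In 26 alternative settings *Pcsk1*, *Pcsk2*, *Scg5*, *Cpe*, *Pam* and *Ctsl* kept their direction and their calls, and *Furin* was never called. *Qpct* fell below the fold threshold under normexp (log2 fold change 0.55), which left 1 processing gene called up there. *Pcsk1n* turned positive after quantile normalization (0.056) and with spike-in probes (0.12), and the cause was not tested. Of the other pathway genes, 4 were called up and 15 down with spike-in probes, and 7 up and 41 down with no fold threshold. None was called up (0 genes) under normexp, with probes above background on all 8 arrays or by the methods' t-test with adjustment, and leaving out single arrays gave 0 to 1 up and 20 to 23 down. Over all genes, 2501 were called up and 1031 down with spike-in probes, and 3679 up and 4166 down with no fold threshold, against 1284 and 1710. With the replicate number as a block, 2 processing genes were called up and 5 down, and no call among the 9 changed. The correlations of deviations between same-numbered samples were 0.52, -0.01, 0.24 and 0.38, and 5 of 8 samples correlated best with their own number. Since 1 of the 4 was below 0.1, the numbers, which are slide positions, were not taken to pair the samples. *Sorl1* had no value with probes above background on all 8 arrays, and a slide block was not possible because each slide held 1 group. Dim probes, such as the second of *Pcsk2*, limit what can be called.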
